A study of Rattus norvegicus with 10 samples.

Results

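The 4 genes described here encode 2 growth factor ligands, Fgf2 (ENSRNOG00000017392) and Bdnf (ENSRNOG00000047466), and 1 receptor for each, Fgfr1 (ENSRNOG00000016050) and Ntrk2 (ENSRNOG00000018839). They were chosen by identifier as growth factor genes tied to anxiety-like behaviour in these rat lines, and all 4 were among the 16643 genes of the deposited table. The data are polyadenylated RNA of the whole hippocampus from 10 adult male rats at postnatal day 92. They comprise 5 bred High Responders (bHR) and 5 bred Low Responders (bLR), of breeding generation 43, from lines selected for high or low locomotion in a new environment. Every rat of both lines lived in standard housing, received vehicle injections for 14 days, spent 15 minutes on the elevated plus maze and was killed 1 hour after that test. The labels also give every rat a score for social interaction after the maze. No naive or untested group was used here, so the levels of both lines are levels after injections and behavioural testing.

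Fibroblast growth factor 2 is a mitogen made in the adult brain largely by astrocytes. It signals through receptor tyrosine kinases such as FGFR1 and supports progenitor division and neuronal survival in the hippocampus. Brain-derived neurotrophic factor is made mainly by excitatory neurons and is released with activity. Its receptor TrkB, the product of Ntrk2, strengthens synapses in a full-length kinase form, and glia carry truncated forms that lack the kinase.

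Libraries held 29106105 to 48663164 reads assigned to genes, with a mean of 39114678 ± 7486310 (SD, n = 5) in bHR and 33759218 ± 5216970 (n = 5) in bLR. In bLR replicate 5 the authors' effective library size was 0.933 of the reads, where the other libraries lay at 1.00 to 1.02. That rat held the middle value of its line for each of the 4 genes. Levels are given as RPM, for which each library's reads were scaled by the authors' effective size. They are not corrected for gene length, so they can be compared between rats but not between genes. In bulk tissue, fewer cells of a type and less RNA per cell cannot be told apart. Because the table pairs no identifier with a name, the tissue's marker genes and the other genes of the FGF and neurotrophin pathways were not analysed here.

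Of the 4 genes, Bdnf alone passed the test between the lines: it was higher in bHR by 1.21-fold (95% interval 1.11 to 1.33). Fgf2, Fgfr1 and Ntrk2 did not pass. Among all 16643 genes 1.38% passed (limma, Benjamini-Hochberg adjusted p under 0.05), with 0.613% higher and 0.769% lower in bHR, and 1 of 4 genes is too few to read against those shares. The median difference of the 4 genes was 0.019 on the log2 scale, with 3 higher in bHR and 1 lower. Over all genes the median was -0.0072.

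Bdnf is transcribed from several alternative starts that lead to the same protein. Reads counted per gene add these transcripts together, so the values cannot say which start was used. RefSeq lists 11 Bdnf transcripts and 1 Fgf2 transcript, and its table of promoters (GRCr8 build) holds 6 windows for Bdnf and 1 for Fgf2. The 250 bases before 2 of the Bdnf starts and before the Fgf2 start are shown because Bdnf is the gene that differed and Fgf2 the ligand that did not pass. The Bdnf windows are the most upstream start and the start whose window holds a half-site of the cAMP response element, the letters TGACG or CGTCA, bound by CREB, a factor that responds to neuronal activity. Capitals mark that half-site.
Bdnf, most upstream start, GRCr8 chr3:116619383-116619632, plus strand: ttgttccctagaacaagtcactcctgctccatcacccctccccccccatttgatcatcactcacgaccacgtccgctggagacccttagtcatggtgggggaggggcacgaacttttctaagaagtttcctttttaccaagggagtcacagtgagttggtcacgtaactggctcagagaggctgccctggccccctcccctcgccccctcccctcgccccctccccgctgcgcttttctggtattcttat
Bdnf, start with the half-site, GRCr8 chr3:116637608-116637857, plus strand: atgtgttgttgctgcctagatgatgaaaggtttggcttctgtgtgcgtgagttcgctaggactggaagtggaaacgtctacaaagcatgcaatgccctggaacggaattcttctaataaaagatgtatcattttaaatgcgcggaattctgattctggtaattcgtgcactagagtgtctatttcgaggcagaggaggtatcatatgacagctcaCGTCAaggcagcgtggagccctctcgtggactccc
Fgf2, GRCr8 chr2:122164204-122164453, plus strand: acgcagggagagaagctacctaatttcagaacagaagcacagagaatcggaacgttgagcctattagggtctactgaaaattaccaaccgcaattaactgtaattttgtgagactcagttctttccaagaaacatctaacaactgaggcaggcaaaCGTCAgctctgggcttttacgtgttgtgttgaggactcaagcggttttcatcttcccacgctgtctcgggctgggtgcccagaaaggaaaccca

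The half-site, searched on both strands, lay in 1 of the 6 Bdnf windows, beginning 35 bases before the start, and in the Fgf2 window, beginning 94 bases before it. The Bdnf windows that begin at 116639552 and 116639608 overlap, so the 6 are not separate stretches. The half-site occurred in 18.2% of 33469 windows of the same length. The full 8-letter element TGACGTCA was in neither gene's windows and in 1.59% of all windows. A match is a run of letters and not a measured binding site, and the starts are those of GRCr8, while reads were counted on Rnor_6.0.

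In the bHR rats Bdnf stood at 50.4, 53.8, 50.8, 46.7 and 47.6 RPM in replicates 1 to 5. In the bLR rats it stood at 39.1, 43.9, 44.3, 36.6 and 41.7 RPM. All 5 bHR rats lay above all 5 bLR rats, with the lowest bHR rat (replicate 4) 0.077 log2 units above the highest bLR rat (replicate 3). Such a separation in either direction was found in 4.15% of all genes, and in this direction in 1.99%. The means were 49.9 ± 2.84 RPM (SD, n = 5) in bHR and 41.1 ± 3.26 RPM (n = 5) in bLR. The log2 difference was 0.28 (SE 0.059, 95% interval 0.15 to 0.41, limma adjusted p = 0.042, unadjusted p = 0.00047). The two-sided exact permutation test over rats gave p = 0.0079, the smallest that 5 against 5 rats allow.

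**Figure D1:**
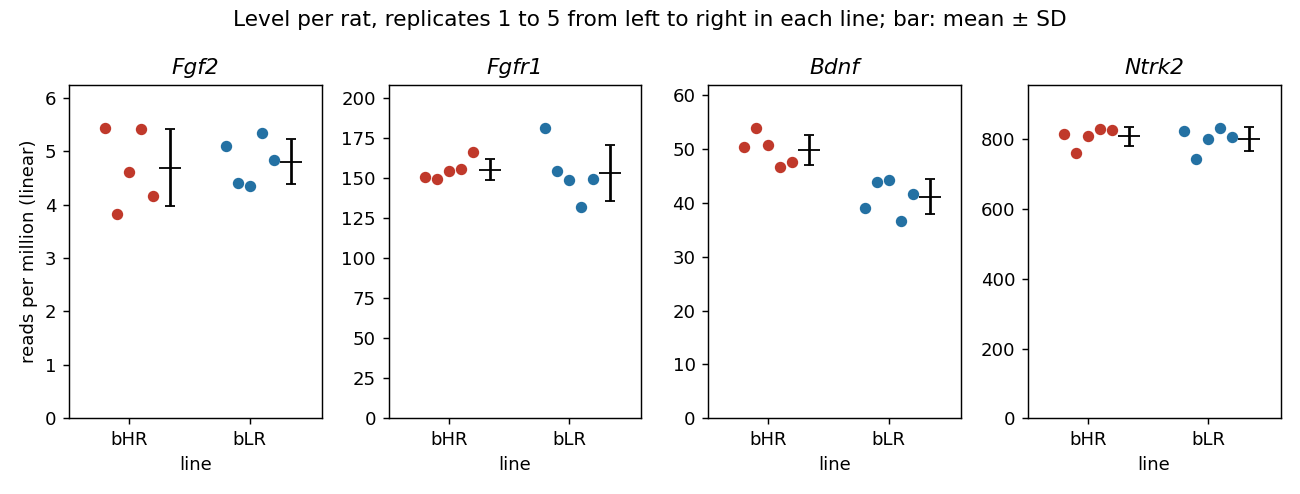
Level of each gene per rat in RPM, on linear axes that start at 0, with 1 panel per gene, points for single rats (bHR red, bLR blue, replicates 1 to 5 from left to right) and bars for the mean ± SD (n = 5). The 5 bHR rats sit above the 5 bLR rats for Bdnf (46.7 to 53.8 against 36.6 to 44.3 RPM), while the lines overlap for Fgf2, Fgfr1 and Ntrk2.

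The Bdnf difference was modest in size and close to the threshold. Ranked by p, Bdnf was gene 186 of 16643, and 44 of the 230 genes that passed had a larger p. Of those 230, 59 had a smaller absolute difference than Bdnf, and the median absolute difference of the 230 was 0.43 on the log2 scale. The Bdnf counts, 1636 to 2519 reads in bHR and 1071 to 1842 in bLR, were large enough that counting alone would give a coefficient of variation of 2.25% and 2.68%. The rats varied by 5.69% and 7.94%, so the spread between rats exceeded that of counting.

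The call rested on having all 10 rats. Leaving out any 1 rat other than bLR replicate 3 raised the limma adjusted p of Bdnf above 0.05, to between 0.0501 (without bLR replicate 2) and 0.104 (without bHR replicate 3). Without bLR replicate 3 it was 0.045. The difference itself stayed between 0.24 and 0.31 on the log2 scale in these fits, each of which has fewer rats. Without the intensity trend in limma's variance prior the adjusted p was 0.084.

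**Figure D2:**
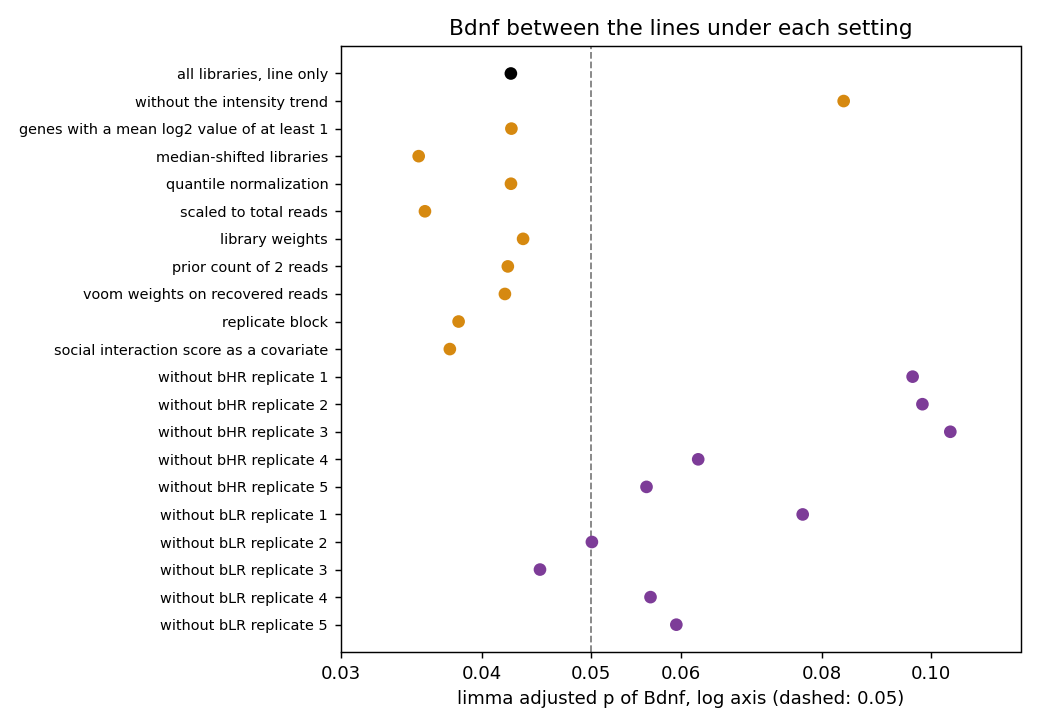
Limma adjusted p of Bdnf between the lines (log axis, dashed line at 0.05) with all libraries and the line as the only term (black), under other processing or models (orange) and with 1 rat left out (purple). The main value is 0.042. Of the orange points 9 lie below 0.05 and 1 above, and of the purple points 1 lies below and 9 above.

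Fgf2, the other ligand, was the least abundant of the 4 by reads, with 121 to 248 reads per library. It stood at 5.43, 3.83, 4.62, 5.42 and 4.16 RPM in bHR replicates 1 to 5. In bLR replicates 1 to 5 it stood at 5.09, 4.41, 4.35, 5.33 and 4.84 RPM. The lines overlapped broadly, and the bHR rats held both the highest and the lowest value. The means were 4.69 ± 0.72 RPM (SD, n = 5) in bHR and 4.81 ± 0.43 RPM (n = 5) in bLR. The log2 difference was -0.045 (SE 0.11, limma adjusted p = 0.89), and its 95% interval ran from -18.1% to 14.8% relative to bLR.

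The precision of the Fgf2 comparison was limited by both reads and rats. Counting alone would give a coefficient of variation of 7.29% in bHR and 7.88% in bLR, and the rats varied by 15.4% and 8.88%. In the RefSeq annotation Fgf2 overlaps Nudt6, a gene long described as its antisense partner. The sources used here do not give the strand setting of featureCounts. Whether reads from the shared stretch were told apart between the 2 genes is therefore unknown.

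Fgfr1, the receptor tyrosine kinase that binds FGF2 among other ligands, stood at 150.5, 149.5, 154.0, 155.2 and 165.9 RPM in bHR replicates 1 to 5. In the bLR rats it stood at 180.8, 154.2, 148.3, 131.9 and 149.3 RPM. The bLR rats held both the highest value, in replicate 1, and the lowest, in replicate 4, and all bHR rats fell between them. The means were 155.0 ± 6.51 RPM (SD, n = 5) and 152.9 ± 17.7 RPM (n = 5). The log2 difference was 0.026 (SE 0.068, limma adjusted p = 0.89), with a 95% interval from -8.10% to 12.8% relative to bLR. Counts of 3858 to 7632 reads would by themselves give a coefficient of variation of 1.28% in bHR and 1.39% in bLR, against 4.20% and 11.6% between rats. Whether the lines differ in spread was not tested.

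Ntrk2, which encodes TrkB, was among the genes with most reads, not corrected for length: 99.3% of genes had a mean log2 value no higher. It stood at 814, 760, 810, 829 and 827 RPM in bHR replicates 1 to 5. In bLR replicates 1 to 5 it stood at 824, 744, 801, 831 and 808 RPM. The lowest rat of each line was its replicate 2, and the lines overlapped over most of their range. The means were 808 ± 27.9 RPM (SD, n = 5) and 802 ± 34.4 RPM (n = 5). The log2 difference was 0.012 (SE 0.038, limma adjusted p = 0.91). Its 95% interval, from -4.82% to 6.87% relative to bLR, was the narrowest of the 4. The gene-level count includes both full-length and truncated TrkB transcripts, so a shift from one form to the other would not show in it.

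**Figure D3:**
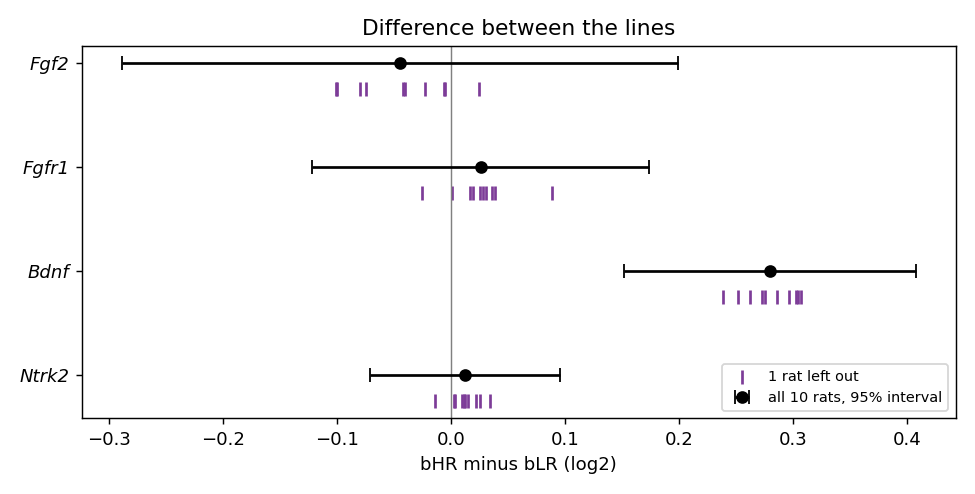
Difference between the lines (bHR minus bLR, log2) for each gene, with the 95% interval from all 10 rats (black) and the difference with each rat left out in turn (purple ticks). The Bdnf interval runs from 0.15 to 0.41. The intervals of the other 3 genes include 0.

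Set against its receptor in the same rat, Bdnf gave 5.64 to 7.08 reads per 100 Ntrk2 reads in bHR and 4.40 to 5.91 in bLR, with means of 6.19 ± 0.57 (SD, n = 5) and 5.15 ± 0.60 (n = 5). The lines overlapped on this measure, although they did not for Bdnf alone. Fgf2 gave 2.51 to 3.61 reads per 100 Fgfr1 reads in bHR and 2.82 to 4.04 in bLR, with means of 3.03 ± 0.51 and 3.18 ± 0.51 (n = 5 each). These ratios are not corrected for gene length and compare rats only. They were not tested.

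The 4 genes were next compared with each other across the 10 rats, in 6 pairs. No pair passed, a count of 0 at a Benjamini-Hochberg adjusted p under 0.05 by a two-sided permutation test, and 0 also at an unadjusted p under 0.05. The closest was Fgf2 with Ntrk2, with Pearson's r of 0.62 (permutation p = 0.054, adjusted p = 0.32) and Spearman's rho of 0.58 (permutation p = 0.089, adjusted p = 0.53). Without the 2 rats farthest from the Fgf2 median, r was 0.46, and without bHR replicate 5 it was 0.80 (permutation adjusted p = 0.046). Neither ligand followed its own receptor over all rats: r was -0.12 for Fgf2 with Fgfr1 (permutation p = 0.76, rho 0.018, permutation p = 0.97) and -0.33 for Bdnf with Ntrk2 (permutation p = 0.35, rho -0.30, permutation p = 0.41). After adjustment over the 6 pairs these 4 p-values lay between 0.71 and 0.97. Without the 2 rats farthest from the median of the ligand, r was -0.21 for Fgf2 with Fgfr1 and turned to 0.14 for Bdnf with Ntrk2. Scaled to total reads, r of Bdnf with Ntrk2 was -0.0052.

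With the line means removed, an alternative to the comparison above, Bdnf and Ntrk2 were inversely correlated in the deposited values. Their r was -0.80 over 10 rats (exact permutation within lines, p = 0.0065, adjusted p = 0.039 over 6 pairs) and their rho -0.94 (exact permutation p = 0.00069). In 6 of the 10 rats the genes lay on opposite sides of their line means. In the same setting r was -0.65 for Fgf2 with Bdnf and 0.65 for Fgf2 with Ntrk2 (exact permutation adjusted p = 0.071 for each). Replicate 2 of each line had the lowest Ntrk2 and stood 0.11 (bHR) and 0.099 (bLR) log2 units above its line mean in Bdnf. Replicate 4 of each line had the highest Ntrk2 and stood at -0.093 and -0.16 in Bdnf. The permutation shuffled each line on its own and took the 10 rats as independent. A pattern common to same-numbered rats of both lines would leave its p-values too small, and such a pattern was not tested. Without the 2 rats farthest from the Bdnf median, bLR replicate 4 and bHR replicate 4, r was -0.78, and without the 2 farthest from the Ntrk2 median, replicate 2 of each line, it was -0.97.

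This relation depended on how the libraries were scaled, in settings chosen after seeing the data. Scaled to total reads, r was -0.54 (exact permutation adjusted p = 0.36). After quantile normalization it was -0.73 (adjusted p = 0.17) and with median-shifted libraries -0.78 (adjusted p = 0.064). Leaving out 1 rat gave -0.89 to -0.75, with an adjusted p above 0.05 without bHR replicate 2 or 4 or bLR replicate 1, 4 or 5, up to 0.31. Of all 16643 genes, 0.643% had an r with Ntrk2 as low as Bdnf or lower.

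**Figure D4:**
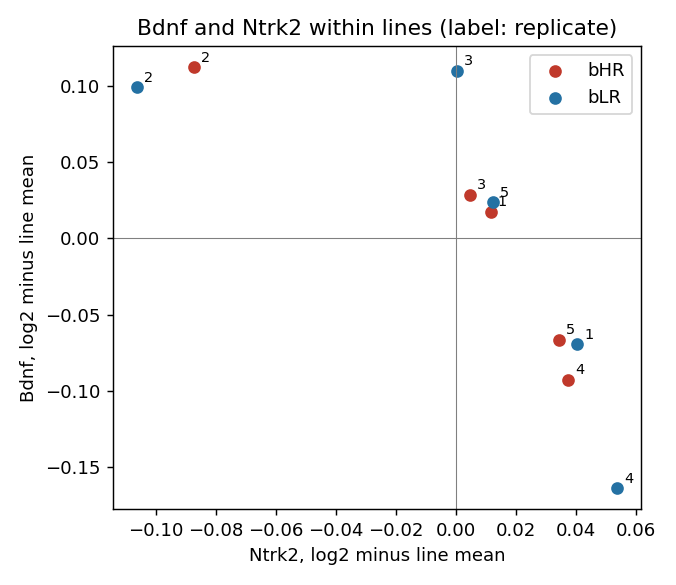
Bdnf against Ntrk2, each as the log2 level minus its line mean, 1 point per rat labelled by replicate (bHR red, bLR blue). The points fall from upper left to lower right, with Pearson's r of -0.80 over 10 rats. Scaled to total reads, r was -0.54.

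The labels also record social interaction after the maze, as a score without a unit. It was 16.67 to 28.33 among bHR rats and 7.33 to 24 among bLR rats. Within lines none of the 4 genes followed the score by limma with both line and score as terms. The count over all genes was 0 (0%) by the adjusted p, as it was with voom weights. At an unadjusted p under 0.05 it was 1183 (7.11%), and 1057 with voom weights. Without bLR replicate 4 the unadjusted count was 591. Bdnf had a slope of -0.12 log2 units per 10 points (SE 0.046, limma unadjusted p = 0.030, adjusted p = 0.68). Scaled to total reads it was -0.098 (limma unadjusted p = 0.096), and with the replicate number as a block -0.011 (limma unadjusted p = 0.87). Among all genes 4.01% fell with the score at an unadjusted p under 0.05. Fgf2 had a slope of 0.18 (SE 0.096, limma adjusted p = 0.74), Ntrk2 of 0.061 (SE 0.033, limma adjusted p = 0.74) and Fgfr1 of -0.079 (SE 0.063, limma adjusted p = 0.81).

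The Bdnf slope was negative in each line, at -0.10 in bHR and -0.12 in bLR (5 rats each, not tested by line). The bLR value rested on replicate 4, which had the lowest Bdnf and the top score of its line: without it the bLR slope was -0.0084, over 4 rats. The same rat set the sign of the bLR slope for Fgfr1, -0.13 with it and 0.10 without it, and for Fgf2, 0.11 with it and -0.039 without it. With the score in the model, the Bdnf difference between lines was 0.38 (SE 0.064, limma adjusted p = 0.037), against 0.28 without it. The fitted slope of Bdnf on the score and its difference between lines thus had opposite signs.

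**Figure D5:**
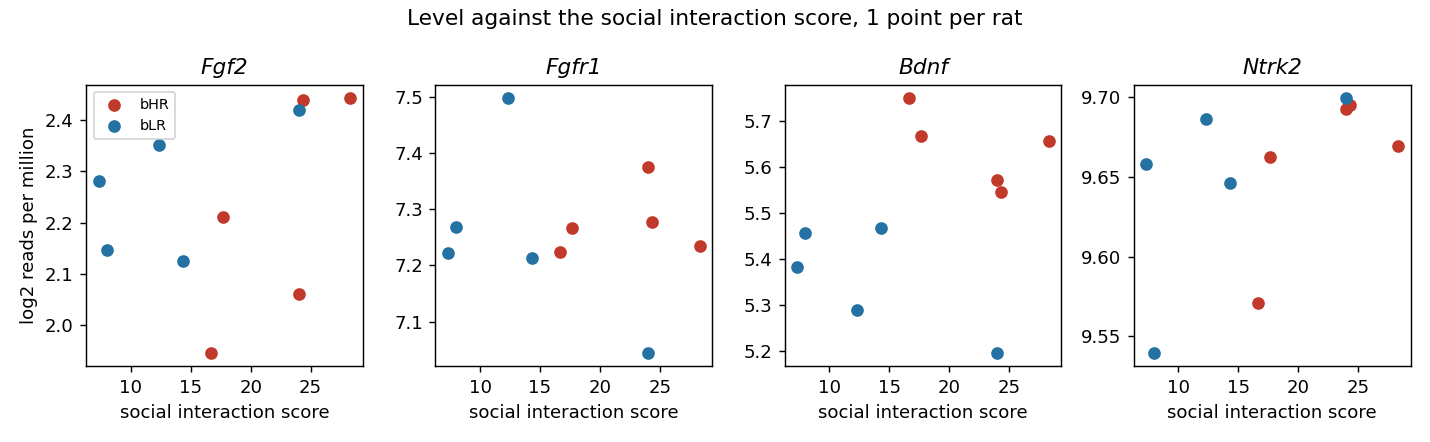
Level of each gene (log2 RPM) against the social interaction score, 1 panel per gene and 1 point per rat (bHR red, bLR blue), with axes that do not start at 0. The Bdnf points form an upper bHR group and a lower bLR group, and the bLR rat at a score of 24 has the lowest Bdnf and the lowest Fgfr1.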

How the data were processed

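Polyadenylated RNA of the whole hippocampus was sequenced as single reads of 50 bases in 10 rats, 5 per line. The labels' protocols admit RNA with an integrity number over 8. Per the labels' protocols and the submitters' processing notes, Subread aligned the reads to Rnor_6.0, featureCounts counted them on Ensembl genes, a gene needed 16 counts or more in 5 samples to stay, and limma voom (R 3.2.2) gave log2 values. The authors' deposited log2 values were tested as they stand. They equal the log2 of the reads plus 0.5, divided by an effective library size and scaled as RPM, and whole reads were recovered from 100% of the values within 0.01 reads. No pair of libraries in a line agreed within sampling noise (lowest chi-square per gene 6.10 over 20 pairs). All 4 genes met the 16-count filter in these libraries, while 505 of the 16643 genes tested did not.

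The line model was fitted in limma 3.58.1 (R 4.3.3) to all 16643 genes, with line as the only term and an intensity trend, and p-values were adjusted by Benjamini-Hochberg at 0.05. All differences are given as bHR minus bLR. A second model held line and score. Single genes were also compared by exact permutation, and pairs by 100000 resamples, or by the 14400 arrangements within lines, with scipy 1.17.1. RPM values are recovered reads scaled by effective size, without a pseudocount. Data were also simulated with these means, sizes and spread, each gene drawn independently of the others. There limma called 26% of the 50 genes given a 1.2-fold change and 62% of those given 1.5-fold, and 7 of 139 calls were false. The changed genes were picked at random over all levels, so these shares do not give the power for the 4 genes.

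The rule for named genes took the 4 genes and, for each, the 2 most similar genes over rats. Symbols of the 4 come from the selection of genes, and 0 of 16643 identifiers matched the RefSeq table (GRCr8). The fixed lists of pathway genes and cell type markers could therefore not be applied. The genes and lists were chosen with earlier results of these data known. No column of sample values was left unused (0). The rats are separate animals. With line means removed, same-numbered libraries of bHR and bLR correlated at -0.15 to 0.15 over genes. That cannot show whether same-numbered rats shared a step of handling, which was not tested.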

Additional observations from a re-analysis of the deposited data

Results flagged for a closer look

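Within the bHR line, Ntrk2 was set apart in 1 rat: bHR replicate 2 stood at 760 RPM and the other 4 at 810 to 829. The gap to its nearest neighbour was 0.738 of the range of the line on the log2 scale, above the limit of 0.71 for 5 samples. In 12 groups of 5 values (4 genes and both ligand-to-receptor differences in each line, which overlap in content) this was the only such value. Chance gives about 1 in 20 for each group, so 1 such value in 12 groups is not unusual. Without this rat the Ntrk2 difference between lines was 0.034 (limma adjusted p = 0.75) and the Bdnf difference 0.25 (limma adjusted p = 0.098).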

How the results depend on the processing

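The Bdnf difference of 0.28 kept its direction in all 20 alternatives, from 0.26 to 0.38 with all libraries (limma adjusted p from 0.035 to 0.084) and from 0.24 to 0.31 with 1 rat left out. With all libraries it passed in 9 of 10 settings. Without the intensity trend it was 0.28 with an adjusted p of 0.084, and the cause was not tested. Fgf2 (-0.045) moved to -0.21 (SE 0.13) with the score as a covariate and turned to 0.010 with library weights, and it ranged from -0.10 to 0.024 with 1 rat left out, positive without bHR replicate 2. Fgfr1 (0.026) reached 0.097 with the score as a covariate, and with 1 rat left out it ranged from -0.025, without bLR replicate 4, to 0.088. Ntrk2 (0.012) turned to -0.043 with the score as a covariate and reached 0.044 after quantile normalization, and with 1 rat left out it ranged from -0.014, without bLR replicate 2, to 0.034. None of these 3 passed in any setting.

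Of the 230 genes changed between lines, the count became 152 without the intensity trend and 46 with the score as a covariate, and 108 to 216 with 1 rat left out (108 to 138 without bHR replicate 1, 2, 3 or 4 or bLR replicate 2 or 3). With the replicate block it was 108, 95 of them shared, and Bdnf had a limma adjusted p of 0.038. With that block the Fgf2 slope on the score turned from 0.18 to -0.076, that of Bdnf went from -0.12 to -0.011 and that of Ntrk2 from 0.061 to 0.0036, and 1 gene followed the score, as 1 did without the intensity trend. Over genes, only 1 of the 5 bHR libraries was closest to the bLR library of its number. Whether same-numbered rats shared a step of handling was not tested. The Fgfr1 slope ranged from -0.11 to 0.046 with 1 rat left out. Of the 6 pairs of genes, 1 passed with line means removed, and 0 to 1 with 1 rat left out (1 without bHR replicate 5). With 1 rat left out, r ranged from -0.40 to 0.17 for Fgf2 with Fgfr1, from -0.50 to 0.62 for Fgfr1 with Bdnf and from -0.11 to 0.40 for Fgfr1 with Ntrk2. The within-line Bdnf and Ntrk2 settings were chosen after seeing the data. The planned edgeR and DESeq2 fits were not run, because the deposited values are on a log scale.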

Other observations

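The genes most similar to the 4 across rats were sought by Pearson's r over 10 rats after the line means were removed, among 14920 other genes with a mean log2 value of at least 0. For each of the 4 the most similar gene reached r of 0.94 to 0.97, as the highest of 14920 values. The 2 highest are given by identifier, without a test. ENSRNOG00000024620 had r of 0.97 with Bdnf and a difference between lines of -0.27, which did not pass (limma adjusted p = 0.34). ENSRNOG00000003738 had r of 0.96 with Ntrk2 and a difference of 0.052 (limma adjusted p = 0.88). Among the same genes, Ntrk2 was number 275 in similarity to Fgf2 (r of 0.65), and Ntrk2 was number 14852 in similarity to Bdnf (r of -0.80).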
